A study of Mus musculus with 12 samples.

Results

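The p53 pathway was examined through 37 genes, p53 itself (Trp53) and 36 genes that encode its controllers and direct targets. They were chosen by name, with no threshold on measured values but with earlier results of these data known. All were found among the 49315 gene rows of RNA-seq count tables. Poly(A) RNA was measured in 12 libraries of primary mouse adult fibroblasts (MAFs) grown from ear tissue, which fell into 4 groups of 3 libraries. WT cells came from C57BL/6 mice and carried both copies of Bmal1 (Arntl in the annotation), the clock transcription factor, whereas KO cells came from BMAL1 -/- mice, which lack both. Control cells of either genotype were sham irradiated. Senescent cells received 20 Gy of X-rays and, per the study's methods, were then kept in culture for weeks. The 12 h below count from dexamethasone and not from irradiation. All 4 groups were grown at 3% O2, given 100 nM dexamethasone for 2 h to set the clock and collected 12 h later. Mouse ages are not given in the sources used here, and neither is the number of mice or cultures behind each group, so p-values measure the spread between these libraries only, which may be technical.

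Total counts were 23923030 to 31736083 per library, and 3 counts equalled 0.0945 to 0.125 CPM, the counts of a gene per 1000000 counts of a library. The summed level of 7 fibroblast markers was 19800 to 20600 CPM in WT control and 9360 to 9760 CPM in WT senescent libraries. It was 24500 to 25900 CPM in KO control and 11100 to 11500 CPM in KO senescent libraries. With senescence Col1a1, Col1a2, Col3a1 and, slightly, Vim fell in both genotypes, whereas Dcn rose in both. Pdgfra and Lum differed between genotypes. On the log2 scale Pdgfra rose by 0.27 in WT and fell by 0.24 in KO cells. Lum rose by 1.46 in WT cells, and its KO change of 0.31 did not pass at an adjusted p under 0.05. Chondrocyte markers such as Col2a1 and Acan were also high. Their sum was 6900 to 8530 CPM in WT control libraries, 1760 to 2040 CPM in WT senescent, 4500 to 6140 CPM in KO control and 553 to 637 CPM in KO senescent cells. The methods name female mice, yet 4 Y-linked genes summed to 236 to 267 CPM in every library, so male cells were present in all 4 groups. Markers of macrophages (8.44 to 16 CPM), melanocytes (0.943 to 5.71), endothelium (1.94 to 7.87) and skeletal muscle (13.9 to 58.9) had low sums throughout. Arntl was lower in every KO library than in any WT library. Control libraries held 11.8 to 15.2 CPM of it in KO and 29.8 to 33.2 CPM in WT cells, and senescent libraries 25.3 to 27.5 CPM and 35.2 to 37.4 CPM. Counts summed over the exons do not show which exons the KO reads came from. The counts were deposited as 1 table per genotype, so wherever KO is set against WT cells, genotype and any difference in handling between the tables cannot be told apart.

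p53 is a transcription factor that DNA damage stabilises, mainly by releasing it from MDM2, the ubiquitin ligase that marks it for destruction. The stabilised protein binds paired elements in DNA and switches on genes for cell cycle arrest, DNA repair, metabolism and cell death, and it also switches on Mdm2, which closes a feedback loop. In fibroblasts, lasting p53 activity after irradiation is a known route into senescence, the stable arrest of damaged cells.

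Promoters were read from RefSeq (GRCm38.p6), 250 bases before to 50 bases after each gene's start. Windows were matched for 31 of the 37 genes, and the 6 without one were Zmat3, Trp53inp1, Perp, Rrm2b, Ddb2 and Xpc. The windows were searched for the p53 response element, a pair of 10-base elements each built around CNNG, with at most 3 mismatches over the 20 bases, none of them in the C or G, and a gap of at most 13 bases. The element reads alike on both strands. It was found in 12 of the 31 genes (38.7%), against 17.4% of all 27025 genes with a window. The members were chosen as genes of the p53 pathway, so shares above those of all genes may follow from that choice. Some genes have several windows, and by window the element was found in 32.6% of 43, against 15.6% of all 32851. With at most 1 mismatch it was found in Ccng1 and Rps27l, 6.45% of the 31 genes, against 0.718% of all genes. With at most 2 mismatches it was found in 6 genes (19.4%, against 4.71% of all genes). These 6 matches are shown because they are the closest, and that of Trp53, with 3 mismatches, because Trp53 encodes p53 itself. Ccng1, Zfp365 and Gadd45a were DEGs of senescence in both genotypes (adjusted p under 0.05 and a log2 fold change over 1), and Rps27l, Gpx1 and Sesn1 were not. Rps27l and Sesn1 each have 2 annotated starts, and the match shown lies before the downstream one. Before the other start Rps27l had a match with 3 mismatches and Sesn1 had none. Distances are from the first base of the match, and that of Gpx1 runs past the start. Capitals mark the pair of elements and lower case the gap.
Ccng1, chr11:40755462-40755481, minus strand, 1 mismatch, 195 bases before the start: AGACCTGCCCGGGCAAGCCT
Rps27l, chr9:66946296-66946315, plus strand, 1 mismatch, 117 bases before the downstream start: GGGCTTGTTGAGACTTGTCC
Zfp365, chr10:67912706-67912725, minus strand, 2 mismatches, 63 bases before the start: AGACTAGGCTGGGCAAGACT
Gadd45a, chr6:67037438-67037463, minus strand, 2 mismatches, 56 bases before the start: GGACCTGGTTggctgaGGGCTAGCCC
Gpx1, chr9:108339059-108339083, plus strand, 2 mismatches, 21 bases before the start: AGACTAGTGCtacagGAGCTAGACC
Sesn1, chr10:41887253-41887275, plus strand, 2 mismatches, 186 bases before the downstream start: GCGCTTGGCCttcAAGCTTGTTT
Trp53, chr11:69580284-69580303, plus strand, 3 mismatches, 75 bases before the start: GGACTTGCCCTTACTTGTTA

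The E-box CACGTG, the sequence that BMAL1 binds with its partner CLOCK and which reads alike on both strands, was found in 3 of the 31 genes (Aen, Trp53 and Zfp365, 9.68%) against 8.09% of all genes. The AP-1 site (TGAGTCA, or TGACTCA on the other strand) was found in Cdip1 and Mdm4, 6.45% against 5.95% of all genes. Zfp365 and, for 1 of its 2 starts, Aen held both a p53 response element and an E-box before the start. The 250 bases before the start of Zfp365, whose element had fewer mismatches than that of Aen (2 against 3), are shown beside those of Ccng1. Capitals mark the p53 response element and, in Zfp365, the E-box that follows it.
Zfp365, chr10:67912663-67912912, minus strand: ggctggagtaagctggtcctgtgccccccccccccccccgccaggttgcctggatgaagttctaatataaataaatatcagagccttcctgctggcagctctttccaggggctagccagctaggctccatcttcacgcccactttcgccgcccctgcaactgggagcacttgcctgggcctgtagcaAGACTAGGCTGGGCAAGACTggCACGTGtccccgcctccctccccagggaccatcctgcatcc
Ccng1, chr11:40755287-40755536, minus strand: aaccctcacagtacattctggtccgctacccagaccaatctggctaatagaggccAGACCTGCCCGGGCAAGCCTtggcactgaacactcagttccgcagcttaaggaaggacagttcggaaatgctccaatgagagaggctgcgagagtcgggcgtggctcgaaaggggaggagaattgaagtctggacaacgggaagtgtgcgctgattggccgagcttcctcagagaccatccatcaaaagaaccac
A match describes these letters only and is not a measured binding site.

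Most of the p53 pathway was higher in senescent than in control cells of both genotypes. All 37 genes passed the filter on low counts, and each was tested with edgeR's quasi-likelihood test, with p-values adjusted by the Benjamini-Hochberg method over 17416 genes. In WT cells 28 members rose at an adjusted p under 0.05 and 3 fell (Trp53, Mdm4 and Apaf1), where 29.2% of all genes tested rose and 27% fell. In KO cells 30 rose and 6 fell (Mdm4, Ppm1d, Sesn1, Apaf1, Steap3 and Ddb2), against 28.5% and 28.6% of all genes. Members that also changed by over 1 on the log2 scale (DEGs) numbered 16 in WT cells, every one higher, against 11.6% of all genes higher and 5.9% lower. In KO cells 13 DEGs were higher and 1, Steap3, was lower, against 11.2% and 7.58% of all genes. The median log2 fold change over the members was 0.81 in WT and 0.57 in KO cells, beside 0.02 and −0.003 over all genes.

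**Figure D1:**
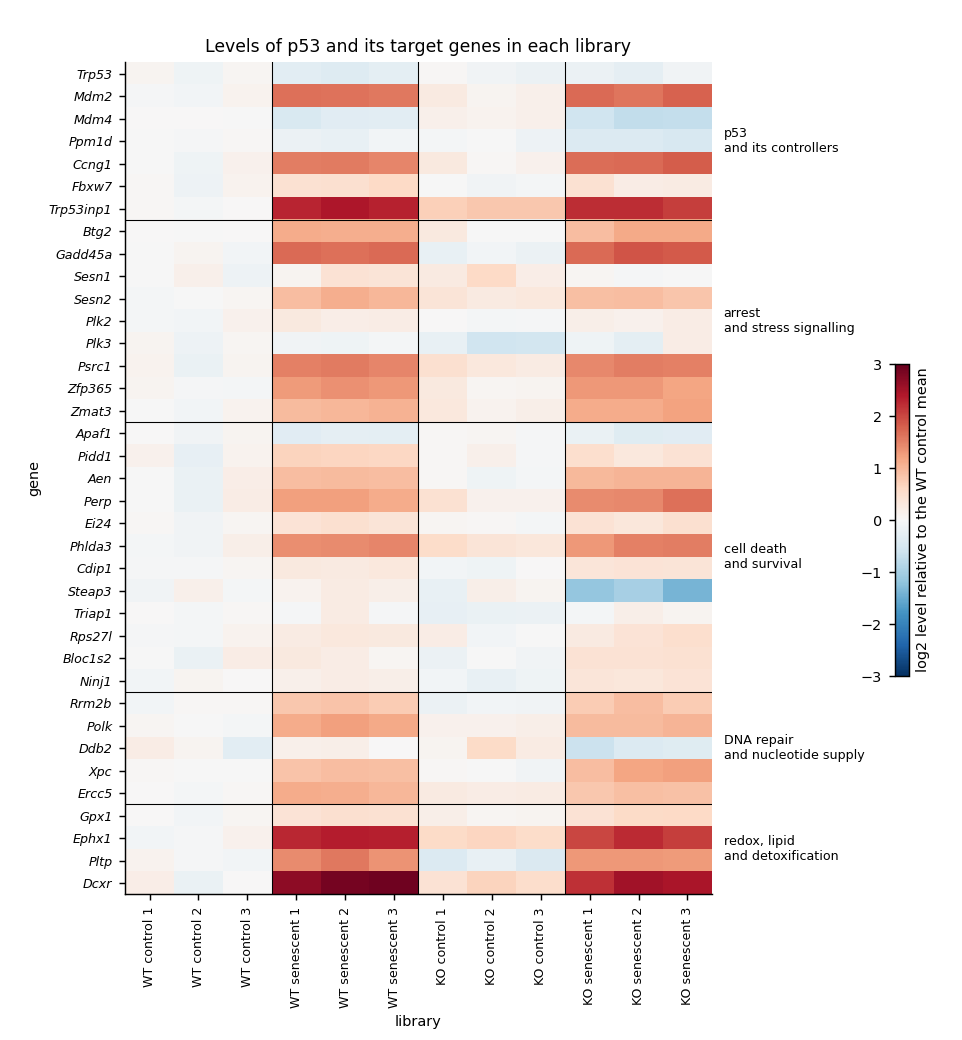
Log2 level of each of the 37 genes (rows, grouped by role) in each of the 12 libraries (columns), relative to the mean of the 3 WT control libraries. Red is higher and blue lower, and the senescent libraries of both genotypes are red for most genes, with the deepest blue for Steap3 in KO senescent cells.

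Scaling moved the size of these changes. When libraries were scaled by total counts only, the median over all genes shifted to 0.194 in WT and 0.15 in KO cells, and 7000 genes rose and 3213 fell in WT cells in place of 5093 and 4702. In KO cells 6703 rose and 3618 fell in place of 4964 and 4983. The members' medians were then 0.98 and 0.72, and no member that passed changed direction. Together the 37 genes took 0.1813% to 0.1928% of all counts in WT control, 0.403% to 0.415% in WT senescent, 0.1979% to 0.2099% in KO control and 0.3813% to 0.406% in KO senescent libraries. Senescent libraries lay above control libraries in both genotypes without overlap. Within groups the median coefficient of variation of a member was 3.57% to 6.51%, and the highest was 18.6%, for Ddb2, the member with the fewest reads, in WT control cells and for Plk3 in KO senescent cells.

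p53 and its controllers comprised 7 genes, of which 4 rose and 2 fell in each genotype. Of all genes tested, 29.2% rose and 27% fell in WT cells, and 28.5% rose and 28.6% fell in KO cells. Trp53 (ENSMUSG00000059552, chr11:69580359-69591873) was 141, 121 and 138 CPM in WT control libraries, 107, 102 and 109 CPM in WT senescent, 137, 123 and 118 CPM in KO control and 118, 111 and 124 CPM in KO senescent libraries. The WT groups were apart, with control higher, whereas the KO groups overlapped. Trp53 mRNA fell by 0.33 on the log2 scale in WT cells (SE 0.06, adjusted p 0.000176), and its change in KO cells was −0.10 (SE 0.06, adjusted p 0.199). The difference between these changes was 0.23 (SE 0.09, adjusted p 0.0784). That difference passed without KO control replicate 1 (0.0178) or WT control replicate 2 (0.0193), as it did with DESeq2 (0.0423).

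Mdm2 (ENSMUSG00000020184, chr10:117688875-117710758), the ubiquitin ligase and feedback target, rose together with Ccng1, whose product cyclin G1 recruits a phosphatase to MDM2. Mdm2 was 92.9, 89.7 and 102 CPM in WT control libraries, 300, 294 and 285 CPM in WT senescent, 115, 101 and 106 CPM in KO control and 310, 289 and 324 CPM in KO senescent libraries. Senescent and control libraries did not overlap in either genotype, and KO and WT overlapped in both states. Its log2 fold change was 1.63 in WT (SE 0.06, adjusted p 7.41e-15) and 1.52 in KO cells (SE 0.06, adjusted p 1.38e-14), a difference of −0.11 (SE 0.09, adjusted p 0.405). Ccng1 (ENSMUSG00000020326, chr11:40748552-40755311), whose match to the p53 response element is printed above, was 205, 189 and 227 CPM in WT control libraries, 602, 605 and 571 CPM in WT senescent, 254, 213 and 225 CPM in KO control and 664, 668 and 727 CPM in KO senescent libraries. Every senescent library was above every control library, and within senescent cells every KO library was above every WT library. The log2 fold changes were 1.52 in WT (SE 0.07, adjusted p 2.91e-13) and 1.57 in KO cells (SE 0.07, adjusted p 1.41e-13), with a difference of 0.06 (SE 0.10, adjusted p 0.733).

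Trp53inp1 (ENSMUSG00000028211, chr4:11156431-11174379), a nuclear stress protein that helps p53 become phosphorylated, rose less in KO than in WT cells. It was 36.3, 34.3 and 35.8 CPM in WT control libraries, 172, 191 and 176 CPM in WT senescent, 58.0, 61.7 and 62.1 CPM in KO control and 164, 165 and 150 CPM in KO senescent libraries. The KO control libraries lay above all WT control libraries and the KO senescent libraries below all WT senescent libraries. The log2 fold changes of 2.34 in WT (SE 0.06, adjusted p 1.78e-17) and 1.40 in KO cells (SE 0.06, adjusted p 1.27e-14) differed by −0.94 (SE 0.08, adjusted p 2.89e-07).

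Mdm4, a relative of Mdm2 that holds p53 inactive, fell in both genotypes. It was 114, 114 and 113 CPM in WT control libraries, 83.2, 89.8 and 90.7 CPM in WT senescent, 127, 123 and 126 CPM in KO control and 75.2, 67.8 and 69.7 CPM in KO senescent libraries, and no pair of groups compared overlapped. The difference between KO and WT control cells nevertheless did not pass (0.14, adjusted p 0.0794). Mdm4 fell by 0.37 on the log2 scale in WT (SE 0.05, adjusted p 3.38e-06). In KO cells it fell by 0.82 (SE 0.05, adjusted p 2.1e-11), a difference of −0.45 (SE 0.07, adjusted p 0.000242). Ppm1d, which encodes the phosphatase WIP1 that switches damage signals off, was at 15.3 to 20.8 CPM in the group means and fell in KO cells (−0.37, adjusted p 0.00038). Its WT change of −0.17 did not pass (adjusted p 0.0703), nor did the difference of −0.20 (adjusted p 0.215). Fbxw7, the substrate receptor of a ubiquitin ligase, rose by 0.50 and 0.38.

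**Figure D2:**
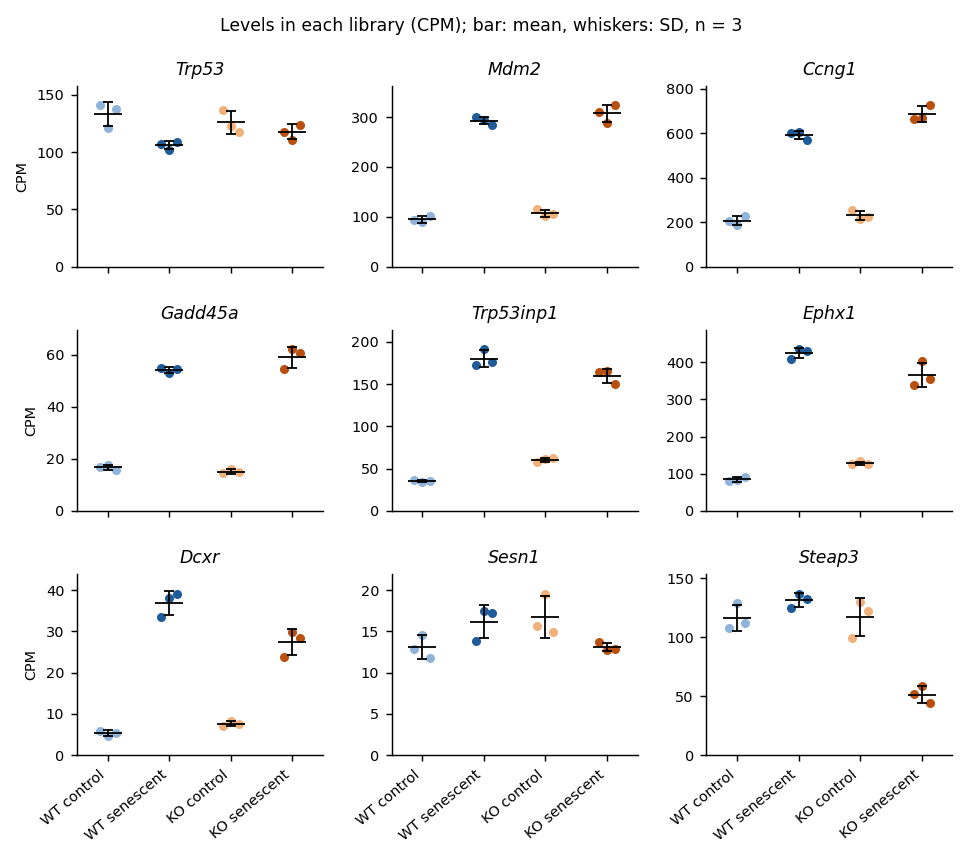
CPM of 9 members in each of the 12 libraries, by group, with the mean (bar) and SD (whiskers) of 3 libraries. Mdm2, Ccng1 and Gadd45a rise to like levels in both genotypes, Trp53inp1, Ephx1 and Dcxr start higher and end lower in KO cells, and Steap3 falls to between 43.8 and 58.2 CPM in KO senescent cells alone.

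Arrest and stress signalling held 9 members, of which 8 rose in WT cells and 1 did not pass, while 8 rose and 1 fell in KO cells. Of all genes, 29.2% rose in WT cells, and 28.5% rose and 28.6% fell in KO cells. Gadd45a (ENSMUSG00000036390, chr6:67035096-67037457), a damage-induced inhibitor of the mitotic kinase complex, was 16.8, 17.8 and 15.9 CPM in WT control libraries, 54.8, 52.9 and 54.6 CPM in WT senescent, 14.4, 16 and 14.9 CPM in KO control and 54.4, 62.1 and 60.6 CPM in KO senescent libraries. Senescent libraries were all higher, and the genotypes overlapped in both states. The log2 fold changes were 1.68 in WT (SE 0.07, adjusted p 3.05e-14) and 1.96 in KO cells (SE 0.07, adjusted p 2.57e-15). Their difference of 0.28 only just passed (SE 0.10, adjusted p 0.0496) and was lost without any 1 of 9 of the 12 libraries, with 0.121 the highest adjusted p, without KO senescent replicate 2; it was kept without KO senescent replicate 1, KO control replicate 2 or WT control replicate 3. Exons of Gadd45a overlap an antisense gene, and the strand setting of the counting is not given in the sources used here, so its counts are uncertain.

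Btg2, an antiproliferative factor, was 21.7, 21.1 and 21.4 CPM in WT control libraries, 46.6, 45.7 and 45.9 CPM in WT senescent, 26.3, 21.1 and 21.3 CPM in KO control and 40.9, 46.9 and 47.0 CPM in KO senescent libraries. Zfp365, a zinc finger protein of genome stability whose promoter is printed above, was 26.6, 24.4 and 24.2 CPM in WT control libraries, 60.3, 65.0 and 61.7 CPM in WT senescent, 30.8, 26.0 and 26.3 CPM in KO control and 61.2, 62.1 and 56.6 CPM in KO senescent libraries. For both genes the senescent libraries were higher without overlap, and KO and WT libraries overlapped in each state. Btg2 rose by 1.11 in WT and 0.97 in KO cells on the log2 scale and Zfp365 by 1.31 and 1.11, and neither difference between genotypes passed (−0.13 with an adjusted p of 0.454, and −0.20 with 0.175).

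Psrc1, a spindle protein, and Zmat3, an RNA-binding growth suppressor, started higher in KO cells. Psrc1 was 31.8, 25.6 and 31.1 CPM in WT control libraries, 83.8, 86.0 and 80.9 CPM in WT senescent, 41.1, 36.8 and 34.8 CPM in KO control and 79.5, 85.1 and 83.3 CPM in KO senescent libraries. Zmat3 was 65.3, 62.1 and 70.3 CPM in WT control libraries, 127, 132 and 136 CPM in WT senescent, 81.4, 71.3 and 74.0 CPM in KO control and 143, 143 and 152 CPM in KO senescent libraries. In Psrc1 the control groups were apart and the senescent groups overlapped, and in Zmat3 the KO libraries were higher in both states. The Zmat3 difference between senescent groups did not pass (0.15, adjusted p 0.0687). Psrc1 rose by 1.5 in WT and 1.14 in KO cells, a difference of −0.37 (SE 0.10, adjusted p 0.0151). Zmat3 rose by 1.00 and 0.95 (difference −0.05, adjusted p 0.731), and its WT change was 0.99, 0.96 and 0.98, under the limit for a DEG, without WT control replicate 1, WT control replicate 2 and WT senescent replicate 3.

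The sestrins, stress proteins that restrain mTORC1, behaved unlike each other. Sesn2 was 31.8, 32.8 and 34.2 CPM in WT control libraries, 62.7, 69.6 and 65.5 CPM in WT senescent, 42.7, 39.5 and 41.0 CPM in KO control and 61.6, 62.8 and 58.3 CPM in KO senescent libraries. Its control groups were apart, with KO higher, and it rose by 1.00 in WT (SE 0.06, adjusted p 1.1e-11) and 0.57 in KO cells (SE 0.06, adjusted p 5.37e-08), a difference of −0.43 (SE 0.09, adjusted p 0.00121). The WT change was 0.97 without WT control replicate 1 and 0.96 without WT senescent replicate 2, and 1.00 but just below the limit without WT control replicate 2. Sesn1 was 12.9, 14.6 and 11.8 CPM in WT control libraries, 13.9, 17.5 and 17.2 CPM in WT senescent, 15.7, 19.6 and 14.9 CPM in KO control and 13.7, 12.7 and 12.9 CPM in KO senescent libraries. WT senescent replicate 1 lay within the WT control range, whereas the KO senescent libraries were all below the KO control libraries.

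Sesn1 thus rose by 0.31 in WT cells (SE 0.11, adjusted p 0.028) and fell by 0.36 in KO cells (SE 0.11, adjusted p 0.011). The difference of −0.66 (SE 0.16, adjusted p 0.00588) passed without each library in turn. The WT rise was lost without WT control replicate 1 (adjusted p 0.0829), WT control replicate 3 (0.119), WT senescent replicate 2 (0.122) or WT senescent replicate 3 (0.104), and with DESeq2 (0.0561). The KO fall was lost without KO control replicate 2 (0.11) and when libraries were scaled by total counts (0.142). The polo-like kinases Plk2 and Plk3 changed little. Plk2 rose by 0.23 and 0.20, and Plk3, at 8.98 to 12.2 CPM in the group means and overlapped by an antisense gene, changed by −0.10 in WT (adjusted p 0.524) and rose by 0.39 in KO cells (adjusted p 0.0151). The Plk3 rise was lost without KO senescent replicate 3 (0.15), KO control replicate 2 (0.0834) or KO control replicate 3 (0.0654).

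**Figure D3:**
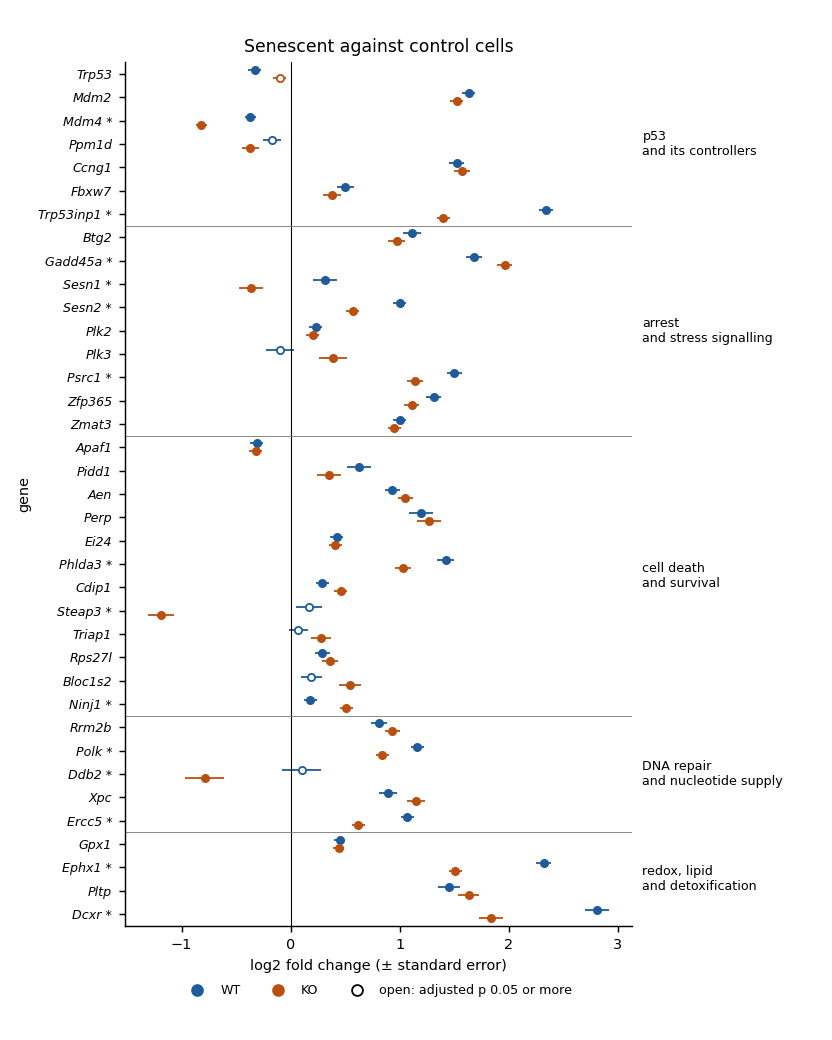
Log2 fold change of senescent against control cells (x axis, ± standard error) for the 37 genes in WT (blue) and KO cells (orange). Filled points passed at an adjusted p under 0.05, and an asterisk marks the 14 genes whose changes differed between genotypes; 12 of those have the KO point left of the WT point, and Gadd45a and Ninj1 have it to the right.

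Cell death and survival genes, 12 in all, had a median log2 fold change of 0.29 (WT) and 0.43 (KO). In WT cells 8 rose and 1 fell, where 29.2% of all genes rose and 27% fell. In KO cells 10 rose and 2 fell, where 28.5% of all genes rose and 28.6% fell. Phlda3 (ENSMUSG00000041801, chr1:135766119-135769136), an inhibitor of the survival kinase AKT, was 98.7, 96.9 and 116 CPM in WT control libraries, 273, 276 and 284 CPM in WT senescent, 151, 136 and 130 CPM in KO control and 255, 296 and 300 CPM in KO senescent libraries. The KO control libraries lay above the WT control libraries, and the senescent groups overlapped. It rose by 1.42 in WT (SE 0.08, adjusted p 8.75e-12) and 1.03 in KO cells (SE 0.07, adjusted p 6.73e-10), a difference of −0.39 (SE 0.10, adjusted p 0.0118). In KO cells it was 0.98 without KO control replicate 3, 0.99 without KO senescent replicate 2 and 0.98 without KO senescent replicate 3.

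Perp, a membrane protein of desmosomes and of p53-dependent death, was 24.3, 21.3 and 28.8 CPM in WT control libraries, 57.8, 57.9 and 53.5 CPM in WT senescent, 33.8, 26.7 and 27.1 CPM in KO control and 66.0, 67.2 and 77.8 CPM in KO senescent libraries. It rose by 1.19 in WT and 1.27 in KO cells (difference 0.08, SE 0.15, adjusted p 0.768), with no overlap between states. Perp is abundant in keratinocytes, and 6 keratinocyte markers summed to 3.39 to 5.74 CPM in WT control libraries, 10.4 to 15 CPM in WT senescent, 3.28 to 4.44 CPM in KO control and 15.9 to 17 CPM in KO senescent cells; none was at 0 in every library, 4 of the 6 were tested, all 4 rose in both genotypes, and their part in the Perp result was not tested. Aen, a nuclease of apoptotic DNA, was 83.0, 73.1 and 96.1 CPM in WT control libraries, 158, 162 and 160 CPM in WT senescent, 85.5, 76.2 and 80.1 CPM in KO control and 164, 168 and 169 CPM in KO senescent libraries. Its senescent libraries were far above control, and it rose by 0.93 and 1.05 (difference 0.12, adjusted p 0.422).

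Steap3 (ENSMUSG00000026389, chr1:120190757-120272705), a ferrireductase that was also described as a p53-induced death and secretion gene, was the member with the largest difference between genotypes. It was 108, 129 and 112 CPM in WT control libraries, 125, 137 and 132 CPM in WT senescent, 99, 130 and 122 CPM in KO control and 51.6, 58.2 and 43.8 CPM in KO senescent libraries. The first 3 groups overlapped in every comparison among them that was made, and each KO senescent library was below all other libraries. Its log2 fold change was 0.17 in WT cells (SE 0.12, adjusted p 0.231) and it fell by 1.19 in KO cells (SE 0.12, adjusted p 4.66e-06), a difference of −1.37 (SE 0.17, adjusted p 0.000257).

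Chondrocyte markers fell with Steap3 in KO cells, and in WT cells they fell while Steap3 did not pass. Of 6 such markers 5 were tested, none was at 0 in every library, and all 5 fell in both genotypes and fell further in KO cells, with medians of −2.25 in WT and −4.36 in KO cells and −2.14 for the difference. Their part in the Steap3 result was not tested. In these bulk libraries, fewer cells of a type and less RNA per cell cannot be told apart. Without the low-count filter or with total-count scaling the WT change of Steap3 passed as a rise (adjusted p 0.0347 and 0.0275).

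Ninj1, which ruptures the membrane of dying cells, was 29.4, 32.7 and 31.1 CPM in WT control libraries, 34.5, 36.4 and 35.1 CPM in WT senescent, 29.3, 26.8 and 28.5 CPM in KO control and 39.8, 39.4 and 41.5 CPM in KO senescent libraries, so the KO groups were farther apart. It rose by 0.18 in WT (adjusted p 0.02) and 0.51 in KO cells (adjusted p 7.34e-07), a difference of 0.33 (SE 0.09, adjusted p 0.0137). Leaving out WT control replicate 1 (0.112) or WT senescent replicate 2 (0.0831) ended the WT call, and leaving out KO control replicate 2 (0.0525) ended that of the difference. Of the other 7, Apaf1, the apoptosome scaffold, fell by 0.31 in WT and 0.32 in KO cells. Pidd1 (0.63 and 0.35), Ei24 (0.42 and 0.41), Cdip1 (0.29 and 0.46) and Rps27l (0.29 and 0.36) rose in both. Triap1 (0.28) and Bloc1s2 (0.54) rose in KO cells, with WT changes of 0.07 and 0.19 that did not pass (adjusted p 0.561 and 0.104). The Triap1 rise was lost without KO senescent replicate 2 (0.0799), and the WT change of Bloc1s2 passed without WT control replicate 3 (0.0137). Exons of Ei24 and Cdip1 overlap antisense genes, so their counts are uncertain.

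DNA repair and nucleotide supply held 5 members, whose median log2 fold change was 0.89 (WT) and 0.84 (KO). Polk, a polymerase that copies past damaged bases, was 35.6, 33.8 and 32.9 CPM in WT control libraries, 74.0, 79.5 and 74.4 CPM in WT senescent, 37.1, 37.2 and 38.8 CPM in KO control and 66.2, 66.2 and 69.2 CPM in KO senescent libraries. Ercc5, the nuclease that cuts 3′ of a lesion in nucleotide excision repair, was 27.7, 26.1 and 28.1 CPM in WT control libraries, 59.0, 57.9 and 54.5 CPM in WT senescent, 33.0, 31.8 and 32.3 CPM in KO control and 47.5, 51.3 and 50 CPM in KO senescent libraries. Both genes were higher in KO control than in WT control libraries and lower in KO senescent than in WT senescent libraries, without overlap. The Polk difference between control groups did not pass, however (0.14, adjusted p 0.116). Polk rose by 1.16 in WT and 0.84 in KO cells, a difference of −0.32 (SE 0.08, adjusted p 0.0066). Ercc5 rose by 1.07 and 0.62, a difference of −0.45 (SE 0.09, adjusted p 0.000871).

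Xpc and Ddb2, the damage sensors of the same repair pathway, moved apart from each other in KO cells. Xpc was 14.3, 14.0 and 13.9 CPM in WT control libraries, 25.6, 26.8 and 26.1 CPM in WT senescent, 14.4, 14.0 and 13 CPM in KO control and 26.9, 32.0 and 33.0 CPM in KO senescent libraries. It rose by 0.89 in WT and 1.15 in KO cells, and the difference of 0.26 did not pass (SE 0.12, adjusted p 0.138), although it did without KO senescent replicate 1 (0.0324). Ddb2 was 5.07, 4.56 and 3.48 CPM in WT control libraries, 4.80, 4.88 and 4.36 CPM in WT senescent, 4.56, 6.43 and 5.11 CPM in KO control and 2.74, 3.23 and 3.38 CPM in KO senescent libraries. Every KO senescent library was below every library of the other groups.

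Ddb2 fell by 0.79 in KO cells (SE 0.18, adjusted p 0.000882), and its log2 fold change in WT cells was 0.10, above 0 (SE 0.18, adjusted p 0.671), a difference of −0.88 (SE 0.25, adjusted p 0.0172) that was lost without KO control replicate 2 (0.07). Its exons overlap Acp2 on the other strand, so reads of Acp2 may be counted in it. Rrm2b, the p53-induced subunit of ribonucleotide reductase, rose by 0.81 in WT and 0.93 in KO cells, and its exons too overlap an antisense gene.

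Genes of redox, lipid and detoxification metabolism all rose in both genotypes, where 29.2% of all genes rose in WT and 28.5% in KO cells. Among these 4 members were Dcxr, with the largest WT rise of any member, and Ephx1. Dcxr (ENSMUSG00000039450, chr11:120725399-120727281), a dicarbonyl and xylulose reductase, was 5.95, 4.52 and 5.28 CPM in WT control libraries, 33.6, 38.0 and 39.2 CPM in WT senescent, 7.04, 8.32 and 7.51 CPM in KO control and 23.8, 29.9 and 28.5 CPM in KO senescent libraries. Ephx1 (ENSMUSG00000038776, chr1:180976210-181020904), the microsomal epoxide hydrolase, was 81.0, 82.4 and 92.3 CPM in WT control libraries, 410, 435 and 431 CPM in WT senescent, 127, 133 and 125 CPM in KO control and 340, 403 and 356 CPM in KO senescent libraries. In both genes the KO libraries were above WT in control cells and below WT in senescent cells, without overlap.

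Dcxr rose by 2.81 in WT (SE 0.11, adjusted p 1.49e-14) and 1.84 in KO cells (SE 0.11, adjusted p 5.06e-12), a difference of −0.97 (SE 0.16, adjusted p 0.000233). Ephx1 rose by 2.32 (SE 0.07, adjusted p 1.14e-16) and 1.51 (SE 0.06, adjusted p 2.37e-14), a difference of −0.81 (SE 0.09, adjusted p 6.54e-06). Exons of Ephx1 overlap those of another gene on the same strand over 72 bases. Pltp, the phospholipid transfer protein, was 9.05, 8.27 and 7.99 CPM in WT control libraries, 22.4, 25.4 and 21.4 CPM in WT senescent, 6.36, 7.21 and 6.27 CPM in KO control and 20.6, 20.6 and 20.3 CPM in KO senescent libraries. Its KO libraries were lower in both states, though the difference between senescent groups did not pass (−0.17, adjusted p 0.173). Pltp rose by 1.45 and 1.63 (difference 0.18, adjusted p 0.394). Its exons overlap Ctsa on the other strand, so its counts are uncertain. Gpx1, a glutathione peroxidase, rose by 0.45 and 0.44.

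Over the members, 12 changes with senescence were lower and 2 higher in KO than in WT cells at the threshold, where 11.7% of all genes were lower and 9.24% higher. The median difference over the 37 genes was −0.05, beside −0.03 over all genes, so most members did not share it. The 2 higher ones became 5 with DESeq2 (with Bloc1s2, Plk3 and Trp53), 4 with DESeq2 size factors and 1 with total-count scaling, and the 12 lower ones were 12 under each. Over all genes, the 1609 higher ones became 1975, 1879 and 1539 under these settings in turn. The 2030 lower ones became 1886, 1810 and 2244. Of the 12 lower ones, 11 passed without each library in turn. Each rests on 4 groups that the comparisons of KO with WT below share, so those values are set out as levels and not as further support.

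In control cells 9 members were higher and 2 lower in KO than in WT, against 8.07% and 4.96% of all genes. The differences over 0.5 on the log2 scale were those of Trp53inp1 (0.77, SE 0.06, adjusted p 1.02e-08), Ephx1 (0.59, SE 0.06, adjusted p 1.37e-06) and Dcxr (0.54, SE 0.13, adjusted p 0.00605). Phlda3 (0.42), Psrc1 (0.35), Sesn2 (0.32) and Ercc5 (0.25) were also higher, and these 7 passed without each library in turn. Sesn1 (0.36) lost the call without KO control replicate 2 (adjusted p 0.281), WT control replicate 1 (0.134) or WT control replicate 3 (0.142). Zmat3 (0.20) lost it without KO control replicate 1 (0.138), KO control replicate 3 (0.0644), WT control replicate 1 (0.11) or WT control replicate 2 (0.132). Plk3 (−0.44) was lower, but not without KO control replicate 2 (0.147), KO control replicate 3 (0.122), WT control replicate 1 (0.121) or WT control replicate 3 (0.0795), and Pltp (−0.35) was lower, but not without KO control replicate 1 (0.0775), KO control replicate 3 (0.121) or WT control replicate 1 (0.14). Trp53 itself did not pass (−0.08, SE 0.06, adjusted p 0.472). Mdm2 did not pass either (0.18, adjusted p 0.0624) but did without WT control replicate 3 (0.0153) or KO control replicate 2 (0.0493), and Ccng1 and Perp passed without WT control replicate 3 (0.0287 and 0.0292).

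In senescent cells 9 members were lower and 4 higher in KO than in WT, against 11.8% and 11.9% of all genes, shares that the members exceeded only on the lower side. Total-count scaling gave 11 lower and 1 higher, and DESeq2 gave 8 and 6. The counts over all genes moved the same way. They were 2050 lower and 2080 higher in the main fit and 2571 and 1718 with total-count scaling. With DESeq2, which tested 34138 genes, they were 1832 and 2501. Steap3 was the one DEG (−1.36, SE 0.12, adjusted p 1.11e-05), and Mdm4 (−0.31, adjusted p 0.000178) and Dcxr (−0.43, adjusted p 0.00216) were the others whose call held without each library in turn. Ddb2 (−0.59, SE 0.18, adjusted p 0.0229) lost it without KO senescent replicate 1 (0.0879), WT senescent replicate 1 (0.0622) or WT senescent replicate 2 (0.08). The remaining lower ones were small: Ppm1d (−0.27), Ephx1 (−0.22), Ercc5 (−0.20), Polk (−0.18) and Trp53inp1 (−0.17). The higher ones were Perp (0.32), Xpc (0.23), Ccng1 (0.21) and Ninj1 (0.19).

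None of those 9 small differences kept its call without each library in turn. Leaving out a library also leaves fewer libraries in its group. Ppm1d lost the call without KO senescent replicate 3 (adjusted p 0.054) or WT senescent replicate 3 (0.0714), and Polk without KO senescent replicates 1 (0.0628) or 2 (0.0684) or WT senescent replicate 2 (0.132). Ephx1 lost it without KO senescent replicates 1 (0.0776) or 3 (0.0527) or WT senescent replicates 2 (0.0676) or 3 (0.0583), and Ercc5 without KO senescent replicate 1 (0.0623) or WT senescent replicates 1 (0.0687) or 2 (0.0592). Trp53inp1 lost it without KO senescent replicate 3 (0.144) or WT senescent replicates 2 (0.185) or 3 (0.0563). Perp (up to 0.14) and Ccng1 (up to 0.128) lost it without KO senescent replicate 3 or any WT senescent library, Xpc (up to 0.199) without KO senescent replicates 2 or 3 or any WT senescent library, and Ninj1 (0.0542 to 0.13) without any 1 of the 6. Without WT senescent replicate 2 there were 4 lower and no higher members. Sesn1 (−0.30, adjusted p 0.0574) passed without WT senescent replicate 1 (0.021), and Fbxw7 (−0.19, adjusted p 0.0898) without KO senescent replicate 1 (0.0295).

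**Figure D4:**
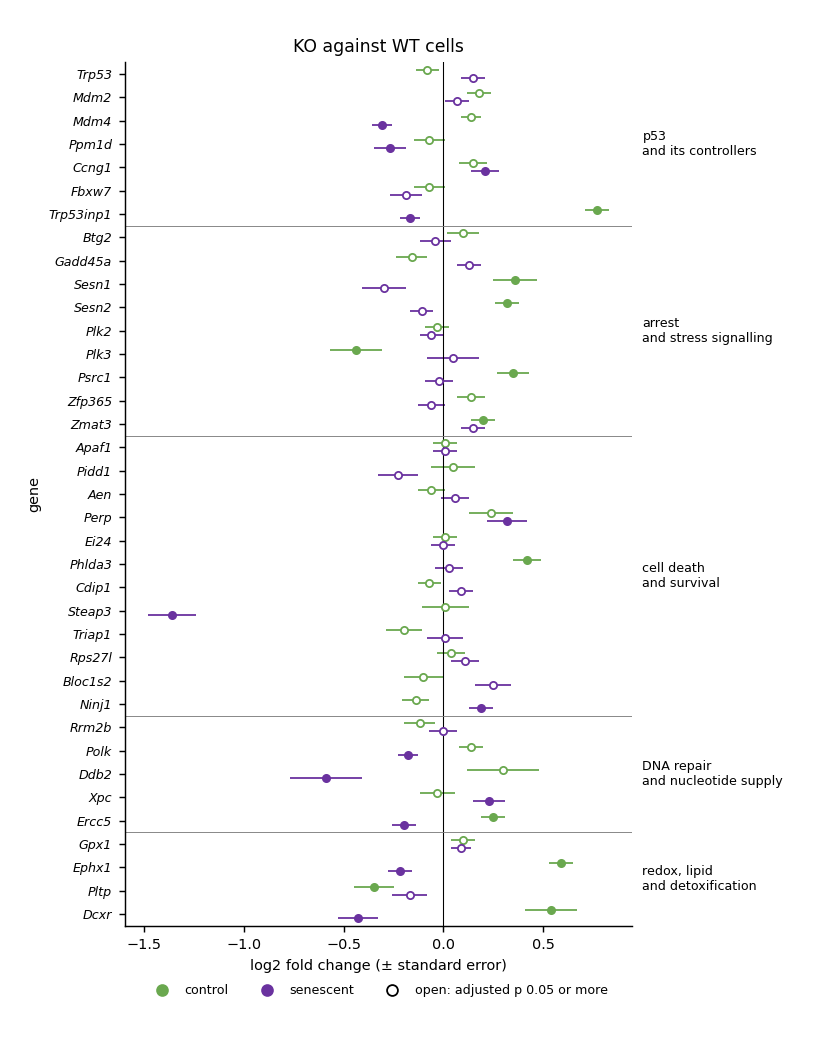
Log2 fold change of KO against WT cells (x axis, ± standard error) for the 37 genes in control (green) and senescent cells (purple), with filled points at an adjusted p under 0.05. Trp53inp1, Ephx1 and Dcxr lie right of 0 in control and left of 0 in senescent cells, and Steap3 in senescent cells lies far left, at −1.36.

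Levels were also compared between genes per kilobase of exon. The length was that of all annotated exons of a gene merged, and a single transcript can be shorter. It was 4045 bases for Trp53 and 5083 for Mdm2. In WT control cells the highest means were those of Rps27l (77.4 CPM per kb), Gpx1 (73.8) and Phlda3 (66.7), followed by Ccng1 (59.0), and the libraries of each neighbouring pair of the first 3 overlapped. In WT senescent cells Ephx1 (218) came first, then Phlda3 (178) and Ccng1 (169), without overlap. In KO senescent cells Ccng1 (195), Ephx1 (188) and Phlda3 (182) led, and their libraries overlapped. Trp53 mRNA was at 26.2 to 33.0 CPM per kb across the 4 group means, and Mdm2 went from 18.7 to 57.6 CPM per kb in WT and from 21.1 to 60.4 CPM per kb in KO cells. By this measure Mdm2 lay below Trp53 in control cells and above it in senescent cells of both genotypes. The order between genes depends on the lengths used.

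A list of 20 further direct p53 targets was looked up beside the members, also chosen with earlier results known. In WT cells 12 rose, 4 fell and 4 did not pass, where 29.2% of all genes rose and 27% fell. In KO cells 13 rose, 5 fell and 2 did not pass, where 28.5% of all genes rose and 28.6% fell. The median log2 fold changes were 0.56 in WT and 0.52 in KO cells. Gdf15, a stress-induced cytokine, rose by 3.87 in WT and 2.41 in KO cells, from 0.285 to 0.542 CPM in WT control and 1.16 to 1.84 CPM in KO control libraries to 5.25 to 6.94 and 7.10 to 7.84 CPM. Its difference between genotypes was −1.46 (SE 0.34, adjusted p 0.00455), and KO control libraries were all higher than WT control libraries. The WT control levels of Gdf15 were close to the 3-count floor of 0.0945 to 0.125 CPM. Its WT rise and this difference therefore rest on few reads in those libraries. Pmaip1, the BH3-only gene for NOXA, rose by 3.25 and 3.20, and Cd80, a costimulatory ligand, by 2.07 and 1.73. Cdkn1a, which encodes the kinase inhibitor p21, rose by 1.92 and 1.63, a difference of −0.29 (SE 0.09, adjusted p 0.0234).

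Of 16 damage signalling genes and p53 cofactors, 2 rose, 9 fell and 5 did not pass in WT cells, where 29.2% of all genes rose and 27% fell. In KO cells 2 rose, 11 fell and 3 did not pass, where 28.5% of all genes rose and 28.6% fell. Rchy1, a ubiquitin ligase of p53, rose in both genotypes. The median log2 fold change over the 16 genes was −0.31 (WT) and −0.29 (KO). The checkpoint kinase Chek1 fell by 2.10 and 1.93, the kinase Chek2 by 1.05 and 1.29, and Mdc1, a mediator at DNA breaks, by 1.04 and 1.32. All 12 proliferation genes fell in both genotypes as well, and their sum went from 1960 to 2510 CPM in WT control to 266 to 292 CPM in WT senescent and from 2160 to 2350 CPM in KO control to 192 to 224 CPM in KO senescent libraries. Among them Mki67 fell by 3.70 and 4.46, Aurkb by 3.57 and 4.47, Ccna2 by 3.62 and 4.39 and Top2a by 3.45 and 4.12. The change was lower in KO cells at the threshold for 8 of the 12, where 11.7% of all genes were lower. For Mki67 the difference did not pass (−0.76, SE 0.30, adjusted p 0.112). In senescent cells 11 of the 12 proliferation genes were lower in KO than in WT, where 11.8% of all genes were. Their part in the members' changes was not tested.

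Of the p53 family, Trp73 was too low to test, at up to 0.579 CPM. Trp63 was 7.68, 9.53 and 7.27 CPM in WT control libraries, 9.76, 10.8 and 9.53 CPM in WT senescent, 9.04, 8.28 and 7.86 CPM in KO control and 3.47, 3.62 and 3.01 CPM in KO senescent libraries. The KO senescent libraries were below all others, as they were for Steap3. Trp63 changed by 0.30 in WT cells (SE 0.13, adjusted p 0.0561) and fell by 1.32 in KO cells (SE 0.14, adjusted p 5.8e-08), a difference of −1.62 (SE 0.19, adjusted p 1.19e-05).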

How the data were processed

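Poly(A) RNA of 12 MAF libraries was sequenced by Azenta Life Sciences as paired reads on an Illumina HiSeq. Per the labels and the study's methods, reads were trimmed with Trimmomatic 0.36, mapped with STAR 2.5.2b to GRCm38 and assigned to genes by exon overlap of unique reads. The deposited values were raw counts per gene, 1 table per genotype. The use of strand and the annotation release are not given in the sources used here, so counts of overlapping genes are uncertain.

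Groups were taken from the sample labels. Symbols, coordinates and exon lengths came from GENCODE M21. Genes were kept by filterByExpr (17416), scaled by TMM and fitted over all 12 libraries with edgeR 4.0.16 in R 4.3.3. Quasi-likelihood F-tests gave the 5 comparisons, with Benjamini-Hochberg adjustment over all genes. SE was the absolute log2 fold change divided by the square root of F. CPM used TMM-scaled totals. The test was checked on simulated counts.

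Per-library values are given for members that were DEGs with senescence, passed the interaction, or passed a KO against WT comparison by over 0.5 on the log2 scale, and Trp53 was added after its values were seen. In other lists at most 4 DEGs with the largest change are named. Markers of macrophages, melanocytes, endothelium and skeletal muscle were also looked up. The members and lists were chosen with earlier results of these data known. Alternatives were DESeq2 1.42.0, other scaling, no filter, a replicate block, only the 6 libraries compared, and each library left out. Floors cover counting error only, since reads carried no molecular identifiers.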

Additional observations from a re-analysis of the deposited data

Results flagged for a closer look

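The senescence change differed between KO and WT cells in 14 of the 37 genes, by the interaction term of edgeR's quasi-likelihood fit over all 12 libraries. Of all genes tested, 11.7% passed this term with a lower change in KO cells and 9.24% with a higher one. The difference, KO change less WT change on the log2 scale, was −1.37 for Steap3, −0.97 for Dcxr, −0.94 for Trp53inp1, −0.88 for Ddb2, −0.81 for Ephx1 and −0.66 for Sesn1. It was −0.45 for Mdm4, −0.45 for Ercc5, −0.43 for Sesn2, −0.39 for Phlda3, −0.37 for Psrc1 and −0.32 for Polk, and it was 0.33 for Ninj1 and 0.28 for Gadd45a. Groups of 3 libraries are too small for a search for single libraries far from the others.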

How the results depend on the processing

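No member that passed changed direction in any of the 2405 values computed under alternatives, of which 2273 kept their side of the threshold, 92 lost it and 40 gained it. Total-count scaling moved the median log2 fold change of the members to 0.98 in WT and 0.72 in KO cells. Members with a higher change in KO numbered 5 with DESeq2, 4 with DESeq2 size factors and 1 with total counts. Members lower in KO control cells numbered 1 without the low-count filter and 1 with only the 6 libraries compared. Over all genes, 864 were lower there in the main fit, and 1066 and 632 under these settings in turn. Members higher in KO senescent cells numbered 2 without the filter, 7 with only the 6 libraries compared and 1 with total counts. Over all genes, 2080 were higher there in the main fit, and 2046, 2551 and 1718 under these settings in turn. The cause of these moves was not tested, except that fewer libraries entered the fit of 6.

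Leaving out each library in turn gave 1 to 4 members higher and 1 to 3 DEGs in the interaction, whose median was −0.11 to −0.01. It gave 0 to 2 members lower in KO control cells, and 0 to 3 higher and 4 to 8 lower in KO senescent cells.

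Replicate numbers are shared between groups, but nothing states that they pair the libraries, and the correlation of same-numbered deviations within genotypes was −0.125 to 0.108. With a replicate block within each genotype, 1 member had a higher change in KO cells, since Gadd45a lost the call, and 12 a lower one. The block left the counts for senescence in WT (28 higher, 3 lower) and KO cells (30 and 6) as they were, and across the 4 groups it gave 10 higher and 2 lower in KO control and 4 higher and 10 lower in KO senescent cells. Depth limits Ddb2 most, with 71 reads in its lowest library.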
